A study of Mus musculus with 56 samples.

Results

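The time course of heart macrophages without regulatory T cells (Tregs) was read from 6 of the 56 libraries of the series: 3 from Treg-depleted mice at day 7 after myocardial infarction (FDG1, FDG2 and FDG3) and 3 from Treg-depleted mice at day 4 (F1, F2 and F3). They were chosen by their labels (heart, Treg-depleted, day 7 or day 4), and day 7 was set against day 4 across 11339 genes with enough counts to test. The depleted mice were Foxp3(DTR/GFP) mice, called FDG, which carry the diphtheria toxin receptor and green fluorescent protein at the Foxp3 locus, so that the toxin kills cells that express Foxp3. The controls were wild-type C57BL/6J mice with 3 libraries at day 7 (WT1, WT3 and WT4) and 3 at day 4 (W1, W3 and W4), used here only where the 2 time courses were compared. All mice were 10 weeks old and all, controls included, received 20 ng/g diphtheria toxin from 2 days before infarction, daily until infarction and then every 2 days. Genotype and depletion thus go together, and the 2 days are separate collections. Each mouse had 1 injury, and the labels do not say that libraries came from separate mice, so the p-values rest on a spread among libraries that may be technical. The sorted cells are called monocytes/macrophages by the labels, and the sorting gate is not given in the sources used here.

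After a coronary artery is blocked, circulating monocytes that carry Ly6C and CCR2 enter the dying muscle, where they secrete cytokines and proteases. Over the following days they mature into macrophages that clear dead cells, handle the lipid taken up with them and secrete factors that act on fibroblasts. Tregs enter the same tissue and are known for restraining inflammation and for acting on macrophages.

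Values are counts per 1000000 counts of the library (CPM), given in the order FDG1, FDG2 and FDG3 for day 7 and F1, F2 and F3 for day 4. Log2 changes are day 7 over day 4 with their standard errors (SE), and adjusted p-values come from the quasi-likelihood test of edgeR, adjusted by Benjamini and Hochberg's method over every gene tested. A gene was called at an adjusted p under 0.05. "Rose" and "fell" are used of called genes only. A dagger (†) marks a gene that shares sequence with another annotated gene (at least 0.05 of its 31-base words), so that its count depends on how shared reads were assigned and is uncertain. Gene positions are from GENCODE mouse release 21 on GRCm38.

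Total counts per library were 4288557 to 9144353 at day 7 and 2642452 to 6254367 at day 4. Foxp3, which is the locus of the receptor in depleted mice, had 0 counts in each of the 12 heart libraries, which checks no label, since the cells sorted here were not T cells. All 14 macrophage identity genes were tested, and together they held 33200 to 39230 CPM at day 7 and 29570 to 36230 CPM at day 4. Ribosomal protein genes held 24180 ± 1700 CPM at day 7 and 24830 ± 1620 CPM at day 4 (SD, n = 3 each, exact permutation p = 0.6, two-sided, where 3 against 3 cannot go below 0.1), and mitochondrial transcripts held 19520 ± 1880 CPM at day 7 and 18110 ± 438 CPM at day 4 (exact permutation p = 0.3). The columns of the 2 days carry different name prefixes, and the day 7 columns name no day, so a difference in library preparation between the days cannot be told apart from time.

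At day 7 the depleted macrophages held less RNA of many monocyte, chemokine, type I interferon, cell cycle and glycolysis genes than at day 4, and more of several genes for dead-cell uptake, growth factors and the glucocorticoid response. In all, 3101 of the 11339 genes (27.3%) passed, 1552 higher (13.7%) and 1549 lower (13.7%). Without F1, 1016 passed as higher. At an unadjusted p under 0.05 there were 4424. Of the called genes, 664 rose and 268 fell at least 2-fold, and 135 rose and 38 fell at least 4-fold. The median log2 change of all genes tested was 0.054. The smallest adjusted p belonged to Txnip, which encodes a thioredoxin-binding protein that restrains glucose uptake, a gene chosen after its values were seen. Txnip had 198, 175 and 218 CPM at day 7, against 30.5, 53.4 and 41.4 CPM at day 4 (log2 change 2.15, SE 0.15, adjusted p = 1.62e-07). Every day 7 library lay above every day 4 library. Over all genes tested, the 3 and 3 CPM values did not overlap for 2852 higher (25.2%) and 1558 lower (13.7%) genes. These CPM are not scaled by the TMM normalization used for the calls. Its factors were 0.9903, 1.069 and 1.0892 at day 7, against 0.9268, 0.9896 and 0.9906 at day 4. The part of this scaling in the counts without overlap was not tested. Genes named for a large change, or by adjusted p within a list, had to be free of overlap. Their lack of overlap is therefore no separate support.

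**Figure D1:**
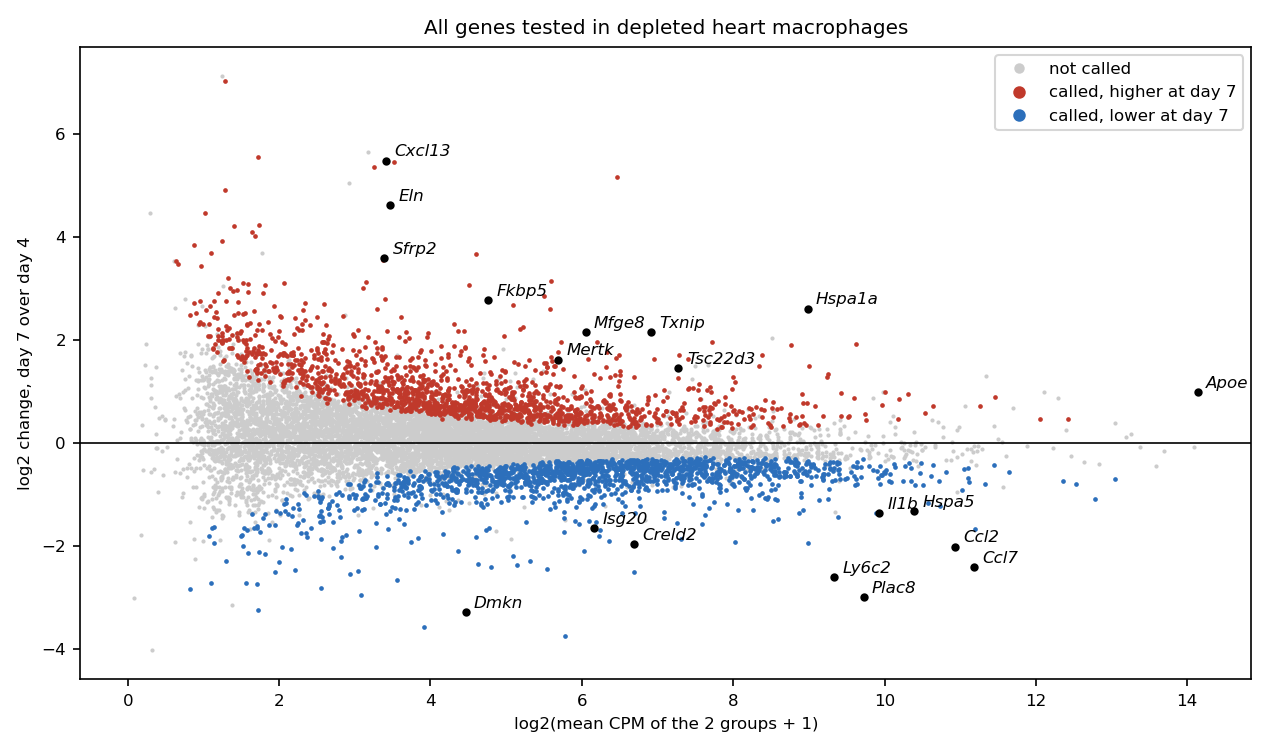
Each point is 1 of the 11339 genes tested in depleted heart macrophages, by log2 of the mean CPM of the 2 groups plus 1 (horizontal axis) and log2 change, day 7 over day 4 (vertical axis). Colour marks genes called higher (1552) or lower (1549) at day 7; the labelled Ly6c2† and Plac8 lie below the zero line, and Txnip and Apoe, the most abundant labelled gene, above it.

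Monocyte genes fell. Of 22 genes of classical and non-classical monocytes, 14 fell, beside 13.7% of all genes tested, 2 rose and 6 did not pass, and their median log2 change was -1.20. Plac8 (ENSMUSG00000029322, chromosome 5, 100553725 to 100572245), a gene of immature myeloid cells, had 173, 246 and 190.0 CPM at day 7, against 1507, 909.8 and 2043 CPM at day 4 (log2 change -2.99, SE 0.35, adjusted p = 0.000365). Ly6c2† (ENSMUSG00000022584, chromosome 15, 75108158 to 75111970), which encodes the surface protein that marks inflammatory monocytes, had 184, 275 and 126 CPM at day 7, against 1103, 841 and 1337 CPM at day 4 (log2 change -2.60, SE 0.34, adjusted p = 0.000619). Day 4 libraries were high and separate from day 7 for both genes, with F2 the lowest of day 4. Ccr2, the receptor that brings monocytes out of the bone marrow, had 352, 278 and 199.6 CPM at day 7, against 696, 568 and 710.1 CPM at day 4 (log2 change -1.35, SE 0.26, adjusted p = 0.00336). Hp, which encodes haptoglobin, had 80.6, 139 and 126 CPM at day 7, against 387, 363 and 455 CPM at day 4 (log2 change -1.93, SE 0.31, adjusted p = 0.00169). Neither gene overlapped between the days, and the fall of Ccr2 was smaller than that of Hp. Vcan, which encodes a matrix proteoglycan of monocytes, also fell (log2 change -2.09). The 2 that rose were Cd9† (log2 change 0.61), a tetraspanin, and Spn, which encodes the leukocyte surface protein CD43. Spn had 26.0, 21.1 and 136 CPM at day 7, against 9.63, 13.2 and 11.5 CPM at day 4, so that FDG3 alone stood far above the rest. Its call (adjusted p = 0.0467) was lost without F1 (adjusted p = 0.137), F2 (adjusted p = 0.0916) or F3 (adjusted p = 0.131). In sorted bulk cells a fall of this kind cannot be told apart between fewer monocytes among the cells and less of this RNA in each cell.

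**Figure D2:**
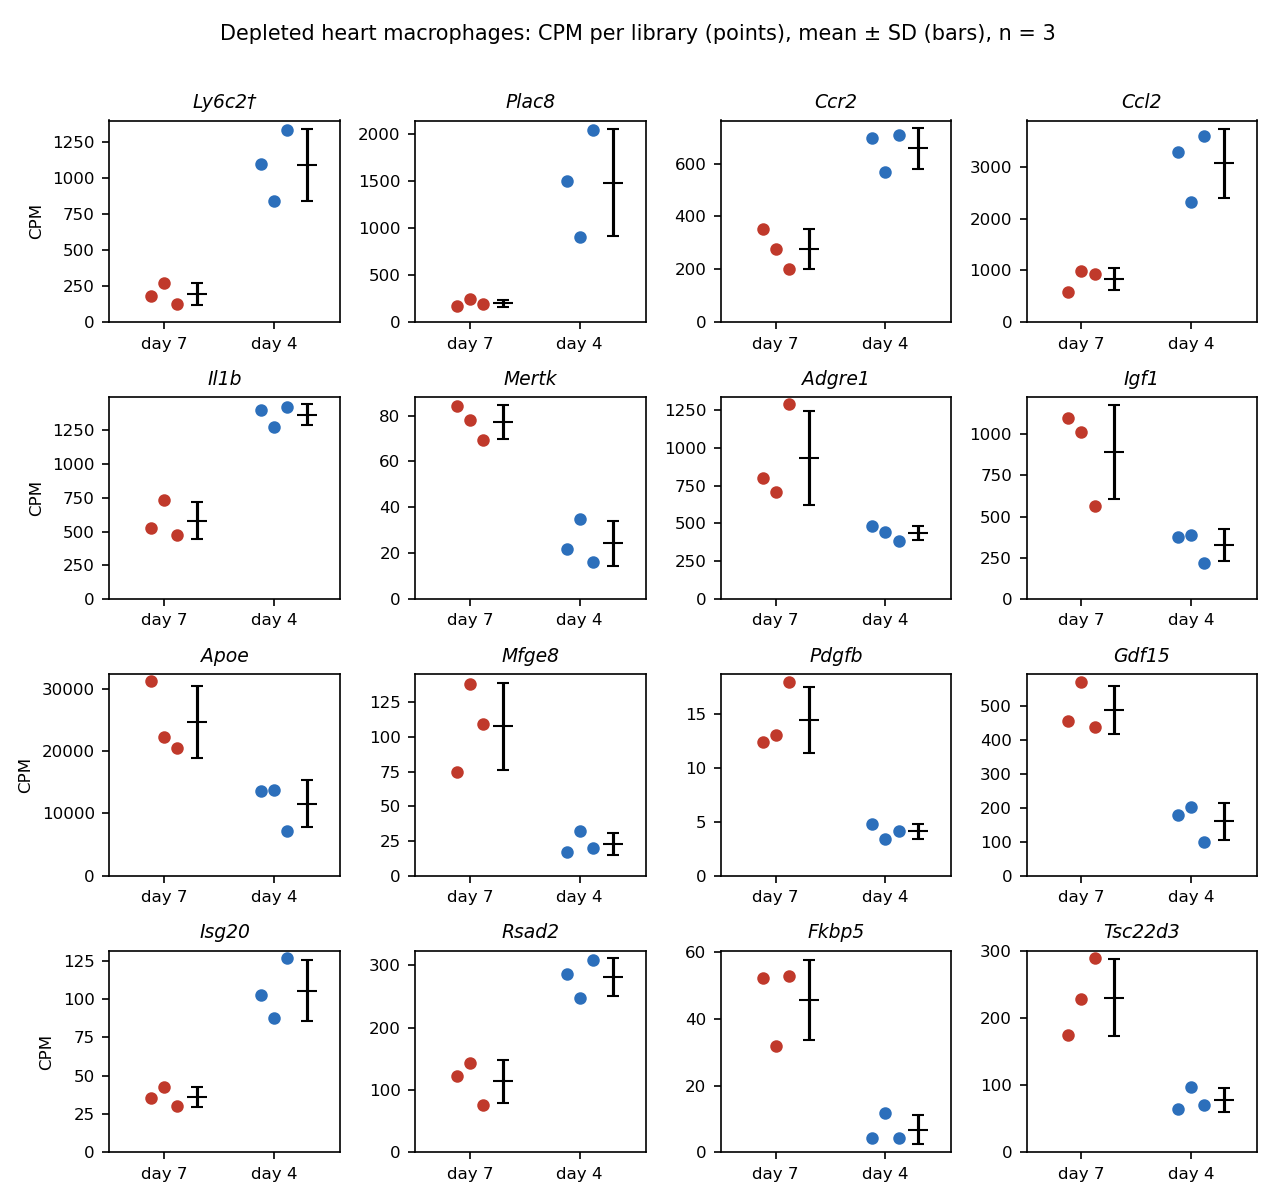
CPM of 16 genes in each depleted library, day 7 left (red) and day 4 right (blue). Points are libraries and black bars the mean ± SD (n = 3), and every axis starts at 0. Ly6c2†, Plac8, Ccr2, Ccl2, Il1b, Isg20 and Rsad2 sit lower at day 7 and the other 9 genes higher. The 3 and 3 libraries do not overlap in any of the 16. Of all genes tested, 25.2% were higher and 13.7% lower without overlap.

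Chemokines and other inflammatory genes fell with them. Of 28 inflammatory cytokine and chemokine genes tested, 11 fell, 2 rose and 15 did not pass (median log2 change -0.75), beside 13.7% of all genes tested in each direction, and 4 rose without FDG3. Ccl7 (ENSMUSG00000035373, chromosome 11, 82045712 to 82047525), a ligand of CCR2, had 554, 1017 and 822 CPM at day 7, against 4494, 2769.8 and 4289 CPM at day 4 (log2 change -2.40, SE 0.24, adjusted p = 1.98e-05). Ccl2, the main CCR2 ligand, had 592, 988 and 922 CPM at day 7, against 3286, 2325 and 3603 CPM at day 4 (log2 change -2.01, SE 0.20, adjusted p = 7.39e-06). Even the lowest day 4 library (F2 for both) was more than the highest day 7 library. Il1b, which encodes the fever cytokine interleukin-1 beta, had 526, 735 and 475 CPM at day 7, against 1404, 1276 and 1421 CPM at day 4 (log2 change -1.36, SE 0.19, adjusted p = 0.00016). Clec4e, a receptor for debris of dead cells and for fungi, had 80.7, 128 and 101 CPM at day 7, against 303, 233 and 303 CPM at day 4 (log2 change -1.56, SE 0.16, adjusted p = 8.91e-06). Both were lower in every day 7 library. The amplifying receptor Trem1 (log2 change -1.81) and the inflammasome sensor Nlrp3 (log2 change -1.07) fell too. The 2 that rose were Cxcl16, a chemokine and scavenger receptor, with 1592, 1306 and 1293 CPM at day 7, against 633, 636 and 692 CPM at day 4 (log2 change 0.99, SE 0.13, adjusted p = 3.6e-05), and Ccl3 (log2 change 0.50), a chemokine for monocytes. Tnf was at 91.1, 132 and 106 CPM at day 7, against 103, 129 and 108 CPM at day 4 (log2 change -0.16, adjusted p = 0.437), where the days overlapped. Il10, the anti-inflammatory cytokine, was at 31.2, 30.1 and 28.9 CPM at day 7, against 27.8, 25.0 and 14.5 CPM at day 4 (log2 change 0.32, adjusted p = 0.298), where F3 was the lowest and the days were close without overlapping. Of 17 NF-kappaB subunits and feedback inhibitors, 3 fell (Nfkbia, Nfkb2 and Nfkbie, log2 change -0.75, -0.68 and -0.88) and 0 rose, beside 13.7% of all genes tested in each direction, and the median log2 change of the list was 0.19, above 0. Of 13 chemokine receptor genes, 4 fell: Cxcr2† (log2 change -2.96), Ccr2, Ccr1 (log2 change -1.30) and the anaphylatoxin receptor gene C5ar1 (log2 change -0.79).

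Macrophage identity genes did not move as a block. Of the 14, 3 rose (Mertk, Adgre1 and Csf1r), 2 fell (Cd14 and Fcgr1) and 9 did not pass, with a median log2 change of 0.19. Of all genes tested, 13.7% passed in each direction, so that the share that fell was near that of all genes. Mertk (ENSMUSG00000014361, chromosome 2, 128698956 to 128802894), the receptor kinase through which macrophages take up dying cells, had 84.0, 78.0 and 69.3 CPM at day 7, against 21.8, 34.8 and 16.0 CPM at day 4 (log2 change 1.62, SE 0.21, adjusted p = 5.42e-05). Adgre1, which encodes the mouse macrophage marker F4/80, had 802, 708 and 1291 CPM at day 7, against 480.4, 444 and 387 CPM at day 4 (log2 change 0.97, SE 0.20, adjusted p = 0.00301). Both were higher in every day 7 library, and Adgre1 was highest in FDG3. The growth factor receptor gene Csf1r rose less (log2 change 0.44). Cd14, a co-receptor for bacterial lipopolysaccharide, had 1362, 2031 and 1978 CPM at day 7, against 2913, 2419 and 2495 CPM at day 4 (log2 change -0.67, SE 0.17, adjusted p = 0.00748). Fcgr1, a receptor for immunoglobulin G, had 405, 404 and 324 CPM at day 7, against 503, 483 and 589 CPM at day 4 (log2 change -0.58, SE 0.12, adjusted p = 0.00156), again with no overlap.

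Among genes of resident macrophages, more rose than fell. Of 24 tested, 8 rose, 2 fell and 14 did not pass, beside 13.7% of all genes tested in each direction. The median log2 change was 0.46. Without FDG1 or without F3, 5 rose, and without FDG2 or without F3, 4 fell. C1qa, a chain of the complement protein C1q, had 1839, 1456 and 1343 CPM at day 7, against 869, 792 and 715 CPM at day 4 (log2 change 0.86, SE 0.15, adjusted p = 0.000504). C1qc had 2481, 1888 and 1746 CPM at day 7, against 1187, 1259 and 996 CPM at day 4 (log2 change 0.73, SE 0.15, adjusted p = 0.00195). Mrc1, the mannose receptor, had 356, 366 and 242 CPM at day 7, against 199.7, 207 and 168 CPM at day 4 (log2 change 0.64, SE 0.17, adjusted p = 0.00898). All 3 were higher in each day 7 library than in any day 4 library. The 2 that fell were Pf4 (log2 change -1.21, adjusted p = 0.000419), which encodes platelet factor 4, and F13a1 (log2 change -1.07, adjusted p = 2.28e-05), which encodes a chain of coagulation factor XIII. Lyve1, a hyaluronan receptor of tissue macrophages, was low, with 4.59, 8.75 and 6.76 CPM at day 7, against 3.57, 5.30 and 2.56 CPM at day 4 (log2 change 0.78, adjusted p = 0.139). Folr2, a folate receptor, had 95.9, 134 and 114 CPM at day 7, against 139, 187 and 108 CPM at day 4 (log2 change -0.44, adjusted p = 0.0538), and was called lower without FDG2 (adjusted p = 0.0335) or F3 (adjusted p = 0.0056), and also by RLE normalization (adjusted p = 0.0396), no filter (adjusted p = 0.00839), DESeq2 (adjusted p = 0.0383) and with genes with copies left out (adjusted p = 0.0393). Cx3cr1, the fractalkine receptor, had 430.1, 315 and 639 CPM at day 7, against 355, 274 and 192 CPM at day 4 (log2 change 0.62, adjusted p = 0.138), and passed as higher without FDG2 (adjusted p = 0.0338) or F1 (adjusted p = 0.0372) and by DESeq2 (adjusted p = 0.0488). The days overlapped for Lyve1, Folr2 and Cx3cr1. Timd4, a phosphatidylserine receptor of long-lived resident macrophages, had too few counts to test.

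Genes for taking up dead cells rose more often than they fell. Of 24 efferocytosis and scavenging genes tested, 9 rose, 3 fell and 12 did not pass (median log2 change 0.32), beside 13.7% of all genes tested in each direction, so that the share that fell was near that of all genes. Mfge8, the bridging protein that coats dying cells, had 75.1, 138 and 109 CPM at day 7, against 16.9, 32.2 and 19.7 CPM at day 4 (log2 change 2.16, SE 0.39, adjusted p = 0.00331), and no day 4 library reached the lowest day 7 library. Abca1, which exports cholesterol, had 146, 154 and 140.4 CPM at day 7, against 44.4, 70.8 and 55.5 CPM at day 4 (log2 change 1.28, SE 0.15, adjusted p = 1.53e-05), likewise with no overlap. Lrp1, a large endocytic receptor, rose by less (log2 change 0.54). The 3 that fell were the scavenger receptor gene Msr1 with 189.6, 273 and 245 CPM at day 7, against 415, 431 and 534 CPM at day 4 (log2 change -1.08, SE 0.12, adjusted p = 1.1e-05), Tgm2 (log2 change -1.10), which encodes a transglutaminase, and Nr1h3 (log2 change -0.72), which encodes the cholesterol sensor LXR alpha. Among 24 genes of lipid-associated macrophages, 4 rose (Abca1, Apoe, Cd9† and the synaptogyrin gene Syngr1), 1 fell (Spp1†) and 19 did not pass (median log2 change 0.20), a share of risen genes near the 13.7% of all genes tested. Apoe (ENSMUSG00000002985, chromosome 7, 19696109 to 19699188), the lipid carrier apolipoprotein E, was the most abundant of these, with 31141, 22258 and 20495 CPM at day 7, against 13645, 13761 and 7166 CPM at day 4 (log2 change 0.99, SE 0.25, adjusted p = 0.008), lowest in F3. Its call was lost with no filter on low counts (adjusted p = 0.0834). The call of Syngr1 (log2 change 0.56) was lost without FDG1 (adjusted p = 0.0555), FDG2 (adjusted p = 0.143), F1 (adjusted p = 0.0989) or F3 (adjusted p = 0.128). Trem2, a lipid receptor of such cells, had 1493, 1562 and 992 CPM at day 7, against 833, 1145 and 633 CPM at day 4 (log2 change 0.53, adjusted p = 0.0766), and passed as higher without FDG3 (adjusted p = 0.00941) or F2 (adjusted p = 0.0172) and with no filter on low counts (adjusted p = 0.0016). Gpnmb had 1084, 1829 and 1218 CPM at day 7, against 531, 861 and 531 CPM at day 4 (log2 change 0.99, adjusted p = 0.0853), with no overlap, and passed as higher in the fit of the 2 depleted groups alone (adjusted p = 0.0138) and by DESeq2 (adjusted p = 0.0464). Without FDG3, 8 of the lipid-associated genes rose. Of 35 lysosome and autophagy genes, a list added after values were seen, 6 rose, near the 13.7% of all genes tested, 2 fell and 27 did not pass (median log2 change 0.14), and 11 rose without FDG3. The cathepsin F gene Ctsf (log2 change 3.13) and the autophagy kinase gene Ulk1 (log2 change 2.08) rose most.

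Among growth factor and matrix genes, those called lay in both directions. Of 22 repair growth factor and matrix genes of macrophages, 6 rose, 4 fell and 12 did not pass, beside 13.7% of all genes tested in each direction, and the median log2 change was 0.00. The share that fell was near that of all genes. Pdgfb had 12.4, 13.1 and 18.0 CPM at day 7, against 4.81, 3.41 and 4.16 CPM at day 4 (log2 change 1.63, SE 0.31, adjusted p = 0.00089). Pdgfc had 41.3, 47.5 and 26.6 CPM at day 7, against 10.3, 14.8 and 11.4 CPM at day 4 (log2 change 1.60, SE 0.25, adjusted p = 0.000193). Pdgfa had 42.2, 40.8 and 50.6 CPM at day 7, against 26.4, 19.3 and 17.6 CPM at day 4 (log2 change 0.94, SE 0.17, adjusted p = 0.0006). These 3 genes encode chains of platelet-derived growth factor, which acts on fibroblasts, and their day 7 libraries all lay above their day 4 libraries. Gdf15, a stress-induced growth factor, had 456, 571 and 439.5 CPM at day 7, against 178, 203 and 99.1 CPM at day 4 (log2 change 1.50, SE 0.23, adjusted p = 0.000705). Igf1 (ENSMUSG00000020053, chromosome 10, 87858265 to 87937042), insulin-like growth factor 1, had 1096, 1012 and 565 CPM at day 7, against 379, 389 and 216 CPM at day 4 (log2 change 1.34, SE 0.31, adjusted p = 0.00966), with FDG3 the lowest of day 7. The matrix glycoprotein gene Sparc was the other that rose (log2 change 1.21), and its call was lost without FDG1 (adjusted p = 0.0817), FDG2 (adjusted p = 0.0643), F1 (adjusted p = 0.0977), F2 (adjusted p = 0.0794) or F3 (adjusted p = 0.0595). Spp1†, which encodes osteopontin, had 3190.1, 6628 and 4461 CPM at day 7, against 10789, 10155 and 6907 CPM at day 4 (log2 change -1.09, SE 0.28, adjusted p = 0.00997), and lost its call without FDG3 (adjusted p = 0.0537). Tgfbi, a matrix protein induced by TGF-beta, had 1026, 1118 and 954 CPM at day 7, against 1746, 1915 and 1372 CPM at day 4 (log2 change -0.81, SE 0.14, adjusted p = 0.0005). The thrombospondin gene Thbs1 (log2 change -1.30) and Nrg1 (log2 change -1.26), which encodes neuregulin 1, were the other 2 that fell, but the call of Thbs1 was lost without any 1 of the 6 libraries (adjusted p = 0.0632 to 0.143) and that of Nrg1 without F3 (adjusted p = 0.0532). Without FDG3, and likewise without F3, 2 of the list fell. Tgfb1 was at 7.98, 9.86 and 7.69 CPM at day 7, against 7.49, 10.6 and 7.99 CPM at day 4 (log2 change -0.10, adjusted p = 0.799), with full overlap. Fn1, which encodes fibronectin, was at 101, 214 and 166 CPM at day 7, against 198, 319 and 210.3 CPM at day 4 (log2 change -0.71, adjusted p = 0.34).

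Of 19 alternative activation genes, 3 rose (Mrc1, Retnla† and Ccl17), 3 fell (Tgm2, Il4ra and Egr2) and 13 did not pass. Both shares were near the 13.7% of all genes tested in each direction. Without FDG3 5 of the list rose, and without F1 1 rose. Retnla†, a secreted protein induced by interleukin-4, had 187, 409 and 189.6 CPM at day 7, against 95.8, 139 and 95.5 CPM at day 4 (log2 change 1.14, SE 0.29, adjusted p = 0.0152), and its call was lost without F1 (adjusted p = 0.0595) or F3 (adjusted p = 0.0709). Ccl17, a chemokine for T cells, had 127, 62.4 and 30.8 CPM at day 7, against 23.4, 13.2 and 27.2 CPM at day 4 (log2 change 1.67, adjusted p = 0.0348), FDG1 being the highest, and lost its call without F1 (adjusted p = 0.095), F2 (adjusted p = 0.0962) or F3 (adjusted p = 0.0752). Egr2 (log2 change -0.49) lost it without FDG1 (adjusted p = 0.156), FDG3 (adjusted p = 0.111), F2 (adjusted p = 0.0836) or F3 (adjusted p = 0.171). Arg1, arginase 1, had 308, 493 and 359.8 CPM at day 7, against 767, 928 and 1032 CPM at day 4 (log2 change -1.35, adjusted p = 0.233). Chil3†, a chitinase-like protein, had 361, 789.7 and 434 CPM at day 7, against 682, 937 and 828 CPM at day 4 (log2 change -0.74, adjusted p = 0.1). Arg1 did not overlap between the days. In controls it had 136, 771 and 62.3 CPM at day 7, against 656, 372 and 486 CPM at day 4, and the fit of the 2 depleted groups alone called it lower at day 7 (adjusted p = 0.000443). Chil3† overlapped, and passed as lower without FDG2 (adjusted p = 0.00398). Of 24 proteases and inhibitors, 3 rose (Timp2, Mmp14 and Mmp2, log2 change 0.99, 0.63 and 2.29) and 5 fell, and 5 rose without FDG3. The share that rose was near the 13.7% of all genes tested. Those that fell were the protease inhibitor Timp1 (log2 change -1.04), the urokinase receptor gene Plaur (log2 change -0.88), Mmp19 (log2 change -0.98), Mmp8 and Ctsc, which encodes cathepsin C. Mmp8 lost its call without FDG3 (adjusted p = 0.0587), and Ctsc without F3 (adjusted p = 0.0541).

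Type I interferon antiviral genes fell as a group. All 29 had a log2 change below 0, 21 fell, 0 rose and 8 did not pass, with a median log2 change of -0.88, where 13.7% of all genes tested fell. Isg20 (ENSMUSG00000039236, chromosome 7, 78913424 to 78920396), an RNA exonuclease, had 35.5, 42.8 and 30.1 CPM at day 7, against 102, 87.4 and 127 CPM at day 4 (log2 change -1.65, SE 0.16, adjusted p = 4.96e-06). Rsad2 (ENSMUSG00000020641, chromosome 12, 26442746 to 26456452), which encodes the antiviral enzyme viperin, had 123, 143 and 75.3 CPM at day 7, against 286, 248 and 308 CPM at day 4 (log2 change -1.41, SE 0.21, adjusted p = 0.00037). Ifitm3†, a membrane protein that blocks virus entry, had 1185, 1396 and 1009 CPM at day 7, against 3702, 3043 and 3778 CPM at day 4 (log2 change -1.67, SE 0.17, adjusted p = 4.96e-06). For these 3 genes the highest day 7 library was below the lowest day 4 library, which was F2 each time. Usp18, a brake on interferon signalling, had 53.7, 74.8 and 56.9 CPM at day 7, against 147, 91.6 and 197 CPM at day 4 (log2 change -1.36, SE 0.22, adjusted p = 0.000668). The transcription factor gene Irf7 had 282, 264 and 208 CPM at day 7, against 509.8, 395 and 584 CPM at day 4 (log2 change -1.09, SE 0.18, adjusted p = 0.000516). Isg15†, a ubiquitin-like modifier, had 74.5, 94.8 and 47.8 CPM at day 7, against 242, 150.2 and 338 CPM at day 4 (log2 change -1.86, SE 0.34, adjusted p = 0.00387). These 3 did not overlap either, with F2 again the lowest of day 4. The summed level of the list was 2990 to 4319 CPM at day 7 and 6780 to 9620 CPM at day 4. In contrast, of 21 interferon-gamma-inducible genes, 0 rose and 0 fell, with a median log2 change of 0.00, and this rested on F3. Their summed level was 4115, 2597 and 2098 CPM at day 7, against 1288, 1482 and 5792 CPM at day 4, so F3 was the highest of the 6 libraries and F1 and F2 the lowest. The interferon-gamma list thus did not order the days. Gbp2, a guanylate-binding protein, had 558, 339 and 253 CPM at day 7, against 107, 155 and 1109 CPM at day 4 (log2 change -0.33, adjusted p = 0.795), and Cxcl9, a T cell chemokine, had 520.1, 143 and 85.1 CPM at day 7, against 18.0, 26.9 and 256 CPM at day 4 (log2 change 1.24, adjusted p = 0.407). Without F3, 12 of the 21 rose, Gbp2 by a log2 change of 1.46 (adjusted p = 0.018) and Cxcl9 by 3.44 (adjusted p = 0.0366). The 23 T and NK cell marker genes summed to 38.1, 32.9 and 34.3 CPM at day 7, against 52.4, 40.1 and 95.5 CPM at day 4, F3 again being the highest. The part of these cells in the values of F3 was not tested.

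The promoters of antiviral genes carry the interferon-stimulated response element (ISRE). The letters GAAA, 2 bases of any kind and GAAA again were searched on both strands, overlapping matches included, in windows of 250 bases before to 50 after each gene's start from RefSeq (GRCm38.p6). Of 23 antiviral genes with a window, 14 held the letters (60.9%), as did 11 of the 18 with a window that fell, against 3.99% of all 27025 windows and 4.17% of those of genes tested in heart. Upstream parts of 3 windows, from genes that fell, are shown 5′ to 3′ on the gene's strand up to the base before the start, with the matches in capitals.
Isg15, chr4:156200819-156200938, minus strand: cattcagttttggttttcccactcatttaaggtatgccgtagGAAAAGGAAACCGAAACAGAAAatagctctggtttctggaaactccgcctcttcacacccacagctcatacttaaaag
Rsad2, chr12:26456453-26456602, minus strand: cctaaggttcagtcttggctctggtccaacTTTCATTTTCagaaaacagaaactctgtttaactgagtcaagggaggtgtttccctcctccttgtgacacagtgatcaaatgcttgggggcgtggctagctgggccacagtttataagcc
Bst2, chr8:71537473-71537622, minus strand: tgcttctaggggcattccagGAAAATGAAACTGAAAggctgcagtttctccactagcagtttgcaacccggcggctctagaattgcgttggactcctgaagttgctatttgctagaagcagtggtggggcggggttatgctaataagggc
In Isg15† 3 matches overlapped and began 78 bases before the start, in Rsad2 there was 1 on the opposite strand beginning 120 bases before, and in Bst2 2 overlapped from 130 bases before. Bst2, which encodes the virus tether tetherin, fell less than the other 2 (log2 change -0.55, adjusted p = 0.00541). The list was made of interferon-inducible genes, so its share against all windows is no result of these data. The share among those that fell (61.1%) was close to that of the whole list (60.9%). The match is a description of the sequence, and binding was not measured.

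Antigen presentation genes differed widely among day 7 libraries. Of 11 MHC class II genes tested, 0 rose and 0 fell (median log2 change 0.67), and their sum was 37520, 19110 and 10910 CPM at day 7, against 13180, 8629 and 13210 CPM at day 4. H2-Ab1, a class II chain, had 11361, 5621 and 2969 CPM at day 7, against 3809.6, 2559 and 3826 CPM at day 4 (log2 change 0.88, adjusted p = 0.17), with FDG1 far above and FDG3 inside the day 4 range. Without FDG3, 4 of the 11 rose, H2-Ab1 by a log2 change of 1.25 (adjusted p = 0.00961). Cd74, the class II chaperone, had 6841, 3445 and 2243 CPM at day 7, against 2999, 1737 and 2637 CPM at day 4 (log2 change 0.67, adjusted p = 0.253). Of 18 genes of MHC class I and peptide loading, 2 rose (H2-Q4† and H2-Q6†) and 1 fell (Psmb10, a proteasome subunit), while 3 fell without FDG1 or without F2. Of all genes tested, 13.7% passed in each direction. The call of H2-Q4† was lost without FDG1 (adjusted p = 0.281), F1 (adjusted p = 0.0875) or F3 (adjusted p = 0.0744), that of H2-Q6† without FDG1 (adjusted p = 0.115) or F1 (adjusted p = 0.0896), and that of Psmb10 without F3 (adjusted p = 0.0616). Psmb8, another such subunit, had 1492, 1127 and 1033 CPM at day 7, against 1333, 1199.6 and 2139 CPM at day 4 (log2 change -0.45, adjusted p = 0.101), F3 being the highest, and passed as lower without FDG1 (adjusted p = 0.017) or F2 (adjusted p = 0.0274) and with no filter on low counts (adjusted p = 0.00328).

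Genes that glucocorticoids induce rose more often than they fell. Of 9 tested, 6 rose, 1 fell and 2 did not pass, with a median log2 change of 0.80, beside 13.7% of all genes tested that rose. The summed level of the 10 listed genes overlapped between the days, with 1309 to 1724 CPM at day 7 and 1323 to 1473 CPM at day 4. Fkbp5 (ENSMUSG00000024222, chromosome 17, 28399094 to 28517527), a chaperone that binds the glucocorticoid receptor, had 52.3, 31.8 and 52.7 CPM at day 7, against 4.46, 11.7 and 4.32 CPM at day 4 (log2 change 2.78, SE 0.40, adjusted p = 0.000437). Tsc22d3 (ENSMUSG00000031431, chromosome X, 140539528 to 140600659), which encodes GILZ, a mediator of glucocorticoid action in leukocytes, had 175, 228 and 289 CPM at day 7, against 64.6, 98.0 and 70.7 CPM at day 4 (log2 change 1.46, SE 0.16, adjusted p = 9.17e-06). The transcription factor gene Klf9 had 15.4, 19.9 and 18.2 CPM at day 7, against 4.10, 5.30 and 2.88 CPM at day 4 (log2 change 2.07, SE 0.36, adjusted p = 0.000616). For all 3 genes every day 7 library was above every day 4 library, with F2 the highest of day 4. Sgk1, a kinase of ion transport, rose by less, with 391, 526 and 361 CPM at day 7, against 253, 269 and 241 CPM at day 4 (log2 change 0.63, SE 0.13, adjusted p = 0.00141). The clock gene Per1 had 19.0, 25.4 and 41.7 CPM at day 7, against 14.1, 15.9 and 14.9 CPM at day 4 (log2 change 0.80, SE 0.27, adjusted p = 0.0356), and lost its call without FDG3 (adjusted p = 0.165), F1 (adjusted p = 0.0966), F2 (adjusted p = 0.0634) or F3 (adjusted p = 0.107). Zbtb16 (log2 change 1.86, adjusted p = 0.0156), a zinc finger repressor, had 6.23, 1.67 and 3.50 CPM at day 7, against 0.713, 1.51 and 0.959 CPM at day 4 and lost its call without FDG1 (adjusted p = 0.163), F1 (adjusted p = 0.0724) or F3 (adjusted p = 0.0568). The 1 that fell was Cdkn1a (log2 change -0.65, adjusted p = 0.0108), the cell cycle inhibitor p21.

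Cell cycle genes fell together, with 1 exception. Of 38 tested, 29 fell, 1 rose and 8 did not pass (median log2 change -0.73), beside 13.7% of all genes tested that fell. Mcm2, a subunit of the helicase that unwinds DNA for replication, had 31.6, 42.4 and 31.7 CPM at day 7, against 65.8, 67.4 and 64.3 CPM at day 4 (log2 change -1.01, SE 0.14, adjusted p = 5.2e-05). The other helicase subunit genes Mcm3, Mcm5 and Mcm6 fell by like amounts (log2 change -0.95, -1.06 and -0.94). Top2a, the topoisomerase of dividing cells, had 43.0, 60.3 and 74.6 CPM at day 7, against 79.5, 110.1 and 102 CPM at day 4 (log2 change -0.84, SE 0.16, adjusted p = 0.000942), and its highest day 7 library was close to its lowest day 4 library. The exception was Mki67, the gene of the proliferation antigen Ki-67, with 24.3, 26.8 and 28.0 CPM at day 7, against 9.99, 14.8 and 14.5 CPM at day 4 (log2 change 0.91, SE 0.22, adjusted p = 0.00491), where every day 7 library was higher. The mitotic kinase gene Aurka fell (log2 change -0.98).

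Metabolic genes fell in the same interval. Of 27 glycolysis and hypoxia genes, 13 fell, 1 rose and 13 did not pass (median log2 change -0.58), beside 13.7% of all genes tested that fell. Slc16a3, which exports lactate, had 55.2, 90.8 and 85.3 CPM at day 7, against 188, 159.7 and 231 CPM at day 4 (log2 change -1.46, SE 0.22, adjusted p = 0.000561). Hif1a, the oxygen-sensitive transcription factor, had 107, 116 and 107 CPM at day 7, against 176, 161 and 225 CPM at day 4 (log2 change -0.88, SE 0.14, adjusted p = 0.000252). Ldha†, lactate dehydrogenase A, had 396, 494 and 470.1 CPM at day 7, against 727, 702 and 887 CPM at day 4 (log2 change -0.88, SE 0.12, adjusted p = 7.29e-05). None of these overlapped between the days, and F3 was the highest of day 4 for all 3. The 1 that rose was Pfkfb3 (log2 change 0.51, adjusted p = 0.0285), a regulator of glycolysis, whose call was lost without FDG2 (adjusted p = 0.0508), FDG3 (adjusted p = 0.137), F1 (adjusted p = 0.115) or F2 (adjusted p = 0.104). Of 33 nuclear genes of oxidative phosphorylation, 19 fell, 0 rose and 14 did not pass, by smaller amounts (median log2 change -0.38), beside 13.7% of all genes tested that fell. Uqcrc1, a core subunit of complex III, had 266, 293 and 295 CPM at day 7, against 403, 388 and 439.9 CPM at day 4 (log2 change -0.64, SE 0.10, adjusted p = 0.000247), and Ndufa4 (log2 change -0.69) fell too.

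Genes of the unfolded protein response fell as well. The list of 26 endoplasmic reticulum stress genes was added after values were seen and so is no evidence of its own direction. Beside 13.7% of all genes tested in each direction, 14 fell, 1 rose and 11 did not pass (median log2 change -0.59). Hspa5, which encodes BiP, the main chaperone of the endoplasmic reticulum, had 753, 886 and 797 CPM at day 7, against 1793, 1408 and 2405 CPM at day 4 (log2 change -1.32, SE 0.17, adjusted p = 4.45e-05). Creld2, a disulfide isomerase, had 41.2, 50.1 and 42.7 CPM at day 7, against 149, 99.5 and 231 CPM at day 4 (log2 change -1.96, SE 0.33, adjusted p = 0.00211). Manf, a secreted chaperone, had 201, 218 and 228 CPM at day 7, against 537, 436 and 687 CPM at day 4 (log2 change -1.48, SE 0.16, adjusted p = 1.26e-05). All day 7 libraries were below all day 4 libraries for these genes, and F3 was the highest and F2 the lowest of day 4 in each. Sdf2l1, Pdia6 and Pdia4 fell likewise (log2 change -1.51, -1.43 and -1.18), as did the transcription factor gene Xbp1 (log2 change -1.01). The 1 that rose was Ddit3 (log2 change 0.56), which encodes the stress factor CHOP, and its call was lost without F3 (adjusted p = 0.0541). Heat shock genes of the cytosol and mitochondria, also listed after values were seen, were divided, with 4 of 16 higher (Hspa1a†, Hspa1b†, Hspb1† and Cryab) and 5 lower (Hspd1†, Hspe1†, Chordc1, Hspa4 and Dnaja1†), and 3 lower without F3. These counts too stand beside 13.7% of all genes tested in each direction. Hspa1a† had 989, 832 and 809.6 CPM at day 7, against 135, 140.4 and 124 CPM at day 4 (log2 change 2.61, SE 0.33, adjusted p = 0.000462). Hspa1b† had 75.5, 58.6 and 102 CPM at day 7, against 8.74, 9.84 and 11.2 CPM at day 4 (log2 change 2.86, SE 0.46, adjusted p = 0.00208). These are near-identical neighbouring genes of the inducible chaperone HSP70. Among 25 genes of dissociation stress and early response, 4 rose, near the 13.7% of all genes tested, 1 fell and 20 did not pass. Their median log2 change was -0.04, and 2 rose without F3. The list includes both Hspa1a† and Hspa1b†. Besides that pair Ier5 and Atf3 rose (log2 change 0.63 and 0.34) and Egr2 fell. Ier5 lost its call without F3 (adjusted p = 0.0512), and Atf3 without FDG2 (adjusted p = 0.143), FDG3 (adjusted p = 0.0734), F1 (adjusted p = 0.0701) or F3 (adjusted p = 0.202). The part of cell isolation in these values was not tested.

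The endoplasmic reticulum stress response element (ERSE), bound by ATF6 with NF-Y, has the letters CCAAT, 9 bases of any kind and CCACG, which were searched in the same windows on both strands. Of 23 genes of the list with a window, 9 held them (39.1%), among them 6 of the 12 with a window that fell, against 0.137% of all windows and 0.15% of those of genes tested in heart. The upstream parts of 3 of them are shown in the same way.
Hspa5, chr2:34771940-34772089, plus strand: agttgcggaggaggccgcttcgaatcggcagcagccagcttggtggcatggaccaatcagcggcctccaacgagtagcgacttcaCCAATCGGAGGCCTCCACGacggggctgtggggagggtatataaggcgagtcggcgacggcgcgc
Creld2, chr15:88819496-88819645, plus strand: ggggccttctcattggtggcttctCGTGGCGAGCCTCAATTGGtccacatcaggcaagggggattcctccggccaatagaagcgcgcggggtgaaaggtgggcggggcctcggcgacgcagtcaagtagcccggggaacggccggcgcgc
Pdia6, chr12:17266439-17266588, plus strand: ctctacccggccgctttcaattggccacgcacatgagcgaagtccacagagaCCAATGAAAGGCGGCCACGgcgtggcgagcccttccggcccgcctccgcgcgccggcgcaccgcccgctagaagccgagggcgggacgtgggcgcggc
The match began 65 bases before the start in Hspa5, 126 before in Creld2, on the opposite strand, and 98 before in Pdia6. The list was made of endoplasmic reticulum stress genes, so its share against all windows is no result of these data. Promoter binding was not measured here either.

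**Figure D3:**
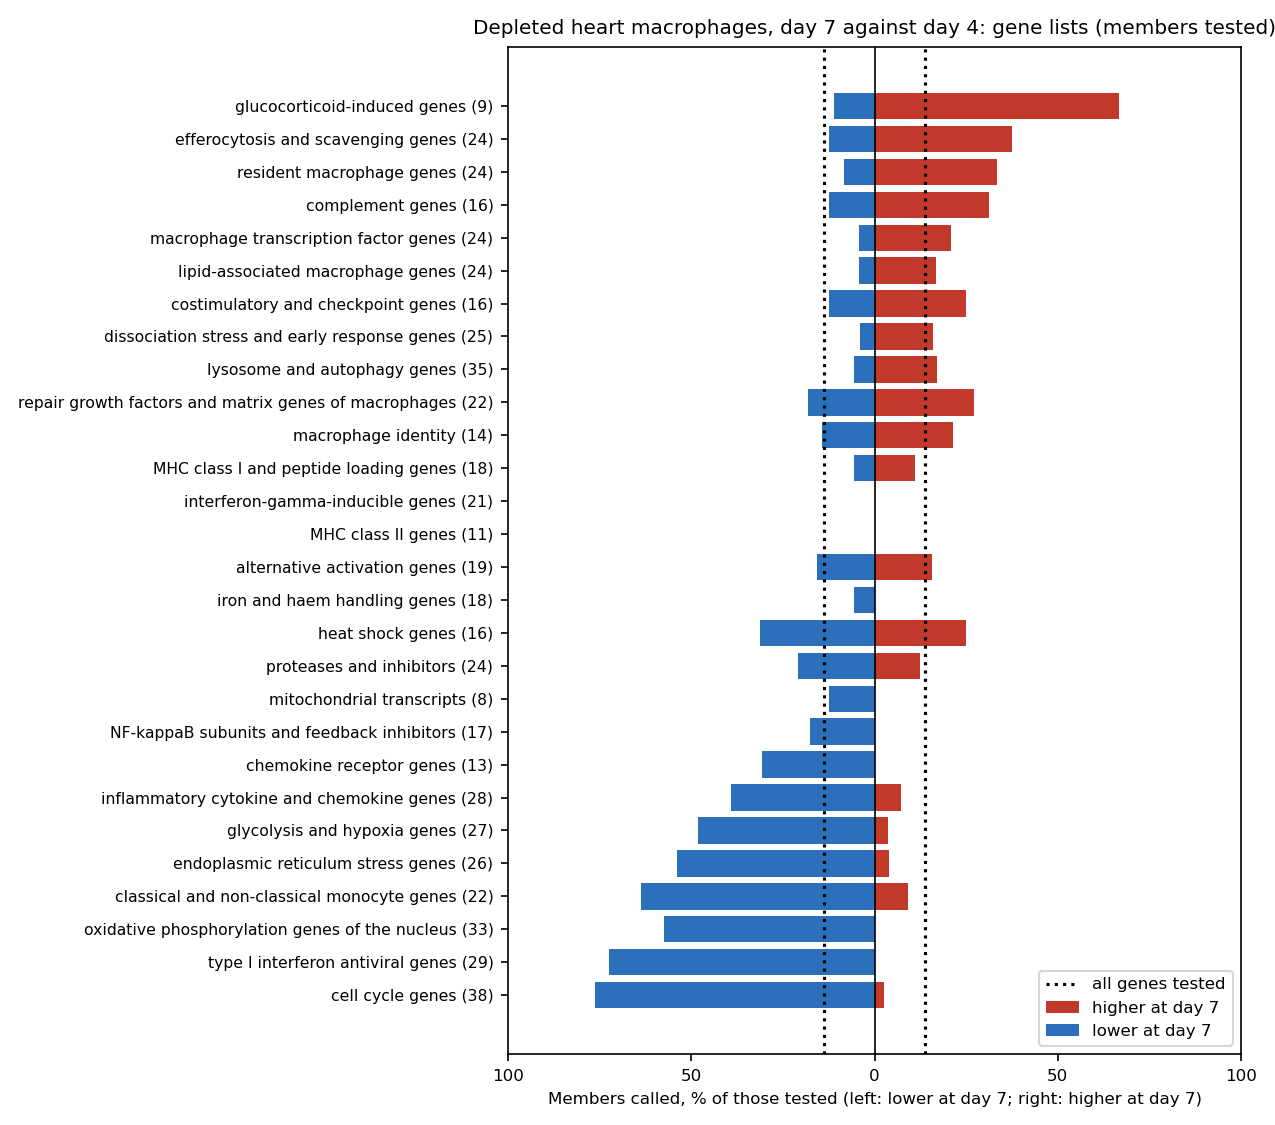
Bars give, for each list of macrophage genes and cell programmes with at least 8 tested members (markers of other cell types not drawn), the percent of its tested members called lower (left, blue) or higher (right, red) at day 7 in depleted macrophages, with the number tested in brackets, and dotted lines give the same over all genes tested (13.7% each way). Cell cycle genes (29 of 38 lower) and type I interferon antiviral genes (21 of 29 lower) reach farthest left, and glucocorticoid-induced genes (6 of 9 higher) farthest right.

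In the remaining macrophage lists, to be read beside 13.7% of all genes tested in each direction, calls went both ways. Of 16 complement genes, 5 rose, 2 fell and 9 did not pass (median log2 change 0.45), and 9 rose without FDG3 and 3 without F3. Those that rose were C1qa, C1qb, C1qc, C3ar1 and Cd55†, of which C1qb lost its call without FDG1 (adjusted p = 0.211), F2 (adjusted p = 0.0956) or F3 (adjusted p = 0.128) and C3ar1 without FDG3 (adjusted p = 0.064) or F3 (adjusted p = 0.0728), and those that fell C5ar1 and the properdin gene Cfp (log2 change -0.73). Of 24 macrophage transcription factor genes, 5 rose (Cebpa, Bhlhe41, Id2, Runx1 and Maf), 1 fell (Nr1h3) and 18 did not pass. Cebpa, a myeloid lineage factor, had 24.6, 35.3 and 32.6 CPM at day 7, against 13.4, 21.6 and 11.7 CPM at day 4 (log2 change 0.92, SE 0.20, adjusted p = 0.00256). The call of Maf was lost without FDG1 (adjusted p = 0.0796), FDG3 (adjusted p = 0.108) or F3 (adjusted p = 0.139), that of Id2 without F3 (adjusted p = 0.0516) and that of Runx1 without FDG2 (adjusted p = 0.0889) or F1 (adjusted p = 0.0943). Of 18 iron and haem genes, 1 fell, the haem oxygenase gene Hmox1 (log2 change -1.07), which lost its call without FDG1 (adjusted p = 0.0576), F1 (adjusted p = 0.0668) or F2 (adjusted p = 0.0569). Of 16 costimulatory and checkpoint genes, 4 rose, or 2 without FDG3, and 2 fell (Lgals9, which encodes galectin-9, and Pilra†, an inhibitory receptor). Icosl (log2 change 1.63), the ligand of ICOS on T cells, and Havcr2 (log2 change 0.72), which encodes TIM-3, rose with Vsir and Clec4a1. The call of Vsir was lost without FDG1 (adjusted p = 0.0872), FDG2 (adjusted p = 0.0768), FDG3 (adjusted p = 0.086) or F3 (adjusted p = 0.241), that of Clec4a1 without FDG3 (adjusted p = 0.111), F2 (adjusted p = 0.0825) or F3 (adjusted p = 0.12) and that of Pilra† without FDG1 (adjusted p = 0.0988), FDG2 (adjusted p = 0.0995), F1 (adjusted p = 0.11) or F3 (adjusted p = 0.0936). Of 5 Fc gamma receptor genes, 2 rose (Fcgr2b† and Fcgr3†) and Fcgr1 fell. The call of Fcgr2b† was lost without FDG1 (adjusted p = 0.165), FDG2 (adjusted p = 0.0598), F1 (adjusted p = 0.0943) or F2 (adjusted p = 0.0657), and that of Fcgr3† without FDG1 (adjusted p = 0.133), F1 (adjusted p = 0.109) or F2 (adjusted p = 0.0606).

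RNA of other cell types changed between the days too. The counts of their genes are to be read beside 13.7% of all genes tested in each direction. Of 13 fibroblast and mural cell genes tested, 11 rose and 0 fell, and 7, 6 and 7 rose without F1, F2 and F3. Their sum over 18 genes was 566, 698 and 479 CPM at day 7, against 181, 191 and 212 CPM at day 4. Dcn, which encodes the matrix protein decorin, had 53.3, 61.4 and 44.3 CPM at day 7, against 15.9, 13.6 and 20.6 CPM at day 4 (log2 change 1.53, SE 0.25, adjusted p = 0.000416). Postn, which encodes periostin, had 48.0, 43.3 and 28.0 CPM at day 7, against 7.85, 11.4 and 12.6 CPM at day 4 (log2 change 1.83, SE 0.38, adjusted p = 0.00436). Both were higher in every day 7 library. Among the 15 largest rises were also the elastic fibre gene Eln with 18.4, 12.2 and 27.5 CPM at day 7, against 0.357, 1.14 and 0.799 CPM at day 4 (log2 change 4.63, SE 0.51, adjusted p = 1.52e-05), Sfrp2 (log2 change 3.59), a secreted Wnt modulator, and Mfap4 (log2 change 3.55), a microfibril protein. B and plasma cell genes summed to 585, 713 and 535 CPM at day 7, against 202, 161 and 188 CPM at day 4, and 3 of 4 tested rose: Ighm (log2 change 1.05, adjusted p = 0.00537), Cd79b (log2 change 1.48, adjusted p = 0.0176) and Igkc. Igkc had 174, 279.7 and 58.1 CPM at day 7, against 4.99, 3.03 and 4.64 CPM at day 4 (log2 change 5.16, adjusted p = 0.0499), and its call was lost without any 1 of the 6 libraries (adjusted p = 0.0563 to 0.142). Cxcl13, a chemokine for B cells, also rose (ENSMUSG00000023078, chromosome 5, 95956951 to 95961068), with 13.5, 20.8 and 21.7 CPM at day 7, against 0, 1.89 and 0 CPM at day 4 (log2 change 5.48, SE 0.84, adjusted p = 0.000665), resting on 5 counts in F2 and 0 in F1 and F3 at day 4. Summed cardiomyocyte genes were at 79.7, 75.4 and 131 CPM at day 7, against 54.0, 51.9 and 68.3 CPM at day 4, and 3 of 11 rose (Tnnt2, Nppa and Ttn, log2 change 1.73, 1.98 and 1.41). The part of these cells in the changes of macrophage genes was not tested.

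Neutrophil genes were called in both directions, to be read, like the lists after them, beside 13.7% of all genes tested in each direction. Of 16 tested, 5 fell, 3 rose and 8 did not pass, while 3 fell without FDG3. Their sum was 477 to 855 CPM at day 7 and 744 to 778 CPM at day 4. S100a8, a subunit of calprotectin, had 96.8, 183 and 100.3 CPM at day 7, against 252, 278 and 314 CPM at day 4 (log2 change -1.26, SE 0.26, adjusted p = 0.00477). S100a9, the other subunit, had 31.3, 41.5 and 25.0 CPM at day 7, against 97.7, 98.4 and 75.0 CPM at day 4 (log2 change -1.57, SE 0.21, adjusted p = 9.84e-05). Neither overlapped between the days. Cxcr2†, Mmp8 and Stfa2l1† were the others that fell (log2 change -2.96, -1.73 and -1.56), but Mmp8 lost its call without FDG3 (adjusted p = 0.0587) and Stfa2l1† without FDG1 (adjusted p = 0.115), FDG3 (adjusted p = 0.0532) or F2 (adjusted p = 0.0957). The 3 that rose encode granule proteins of immature neutrophils. Ngp (ENSMUSG00000032484, chromosome 9, 110419747 to 110423012), neutrophilic granule protein, had 15.5, 30.1 and 15.9 CPM at day 7, against 0, 0.378 and 0.799 CPM at day 4 (log2 change 5.46, SE 0.72, adjusted p = 0.000299), from 142, 217 and 68 counts at day 7, against 0, 1 and 5 counts at day 4. Camp, which encodes the cathelicidin, had 33, 35 and 22 counts at day 7, against 0, 0 and 1 count at day 4, too few there for a fold. Ltf, lactoferrin, had 1.64, 4.03 and 4.20 CPM at day 7, against 0.713, 0.757 and 0.160 CPM at day 4 (log2 change 2.52, SE 0.62, adjusted p = 0.00528). These came from 15, 29 and 18 counts at day 7, against 4, 2 and 1 counts at day 4, so the size of the change is uncertain. Of 9 T and NK cell genes tested, 0 rose and 3 fell: Gzma (log2 change -2.80), Ms4a4b† (log2 change -1.84) and Nkg7 (log2 change -1.39). Gzma, a granule protease, had 1.53, 0.972 and 1.40 CPM at day 7, against 3.39, 5.30 and 16.6 CPM at day 4, and Nkg7 lost its call without FDG1 (adjusted p = 0.138), FDG2 (adjusted p = 0.103) or F3 (adjusted p = 0.505). The dendritic cell list had 1 fall among 8 genes (Klrd1, log2 change -1.64), lost without FDG2 (adjusted p = 0.0824), F1 (adjusted p = 0.0572) or F3 (adjusted p = 0.065). Of 4 mast cell, basophil and eosinophil genes, 1 rose, the eosinophil granule gene Prg2 (log2 change 2.31, SE 0.54, adjusted p = 0.00981). The platelet gene Ppbp had 5.14, 10.00 and 9.33 CPM at day 7, against 111, 151 and 36.5 CPM at day 4 (log2 change -3.74, adjusted p = 0.0273), a call that was lost without FDG1 (adjusted p = 0.0943), FDG2 (adjusted p = 0.0715), FDG3 (adjusted p = 0.0705), F1 (adjusted p = 0.0701) or F2 (adjusted p = 0.0615). Of 10 endothelial genes, 2 rose (Eng and Ly6c1†) and Kdr fell, where the call of Eng was lost without FDG1 (adjusted p = 0.0796), F1 (adjusted p = 0.0635) or F2 (adjusted p = 0.0722) and that of Kdr without FDG1 (adjusted p = 0.0604) or F2 (adjusted p = 0.058). Of 5 erythroid genes 0 rose or fell.

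**Figure D4:**
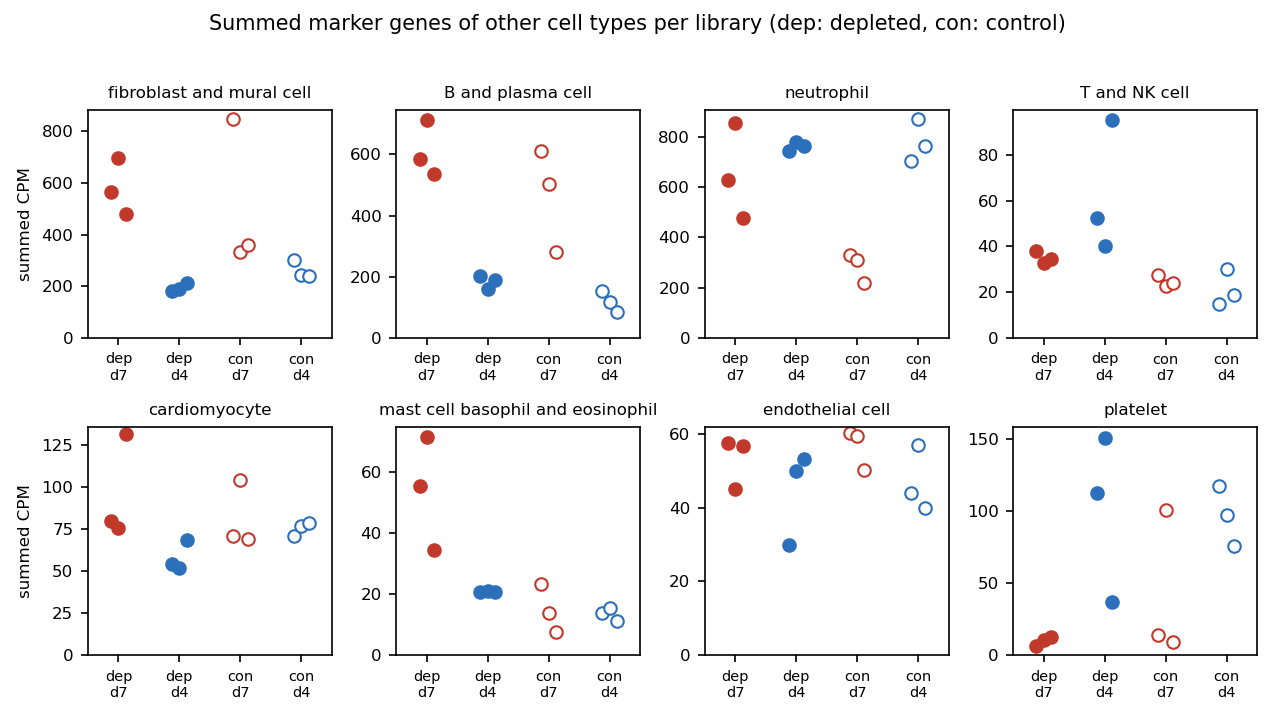
Summed CPM of marker genes of 8 other cell types in each of the 12 heart libraries: depleted day 7 and day 4 (filled), then control day 7 and day 4 (open), red for day 7 and blue for day 4. Fibroblast genes (479 to 698 against 181 to 212 CPM) and B and plasma cell genes (535 to 713 against 161 to 202 CPM) are higher at day 7 in depleted libraries, and T and NK cell genes are highest in F3 (95.5 CPM).

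The time course in control mice, whose libraries are separate from those above, was then set beside that of depleted mice. In controls 3607 of the 11339 genes passed between the days (31.8%), 1696 higher and 1911 lower. Called in the same direction in both were 1777 genes, 57.3% of those called in depleted and 49.3% of those called in control macrophages, and 28 were called in opposite directions. Plac8, Ly6c2† and Ccl2 fell in controls too (log2 change -2.35, -1.96 and -1.42), and Mertk, Mfge8 and Pdgfc rose (log2 change 0.68, 1.43 and 2.32). Several lists that fell in depleted macrophages also fell in controls, beside 16.9% of all genes tested. In controls 13 of 22 monocyte, 10 of 28 inflammatory and 26 of 38 cell cycle genes fell. So did 16 of 27 glycolysis, 17 of 33 oxidative phosphorylation and 18 of 26 endoplasmic reticulum stress genes. The difference between the time courses (depleted minus control, in log2) was tested for every gene, and 464 passed (4.09%), 364 higher (3.21%) and 100 lower (0.882%). The lower count was 66 without F1, 65 without W1 and 53 without W4. The control libraries of day 4 stood apart from the other 9, with ribosomal protein genes at 62778 to 68572 CPM against 21577 to 25858 CPM, and genes with copies held 30.65 to 31.03% of their counts against 22.05 to 25.18%. Outside the ribosomal protein genes, Tpt1† differed with the smallest adjusted p, with 5.03, 6.80 and 5.83 CPM at day 7, against 3.57, 6.81 and 2.72 CPM at day 4 in depleted libraries, and 6.69, 5.11 and 5.83 CPM at day 7, against 706, 590.5 and 705 CPM at day 4 in control libraries. With genes with copies left out before normalization, 97 genes passed, 74 higher and 23 lower. The genes that follow have no copies, and each kept its call in that fit unless stated. That fit still holds the control day 4 libraries, as does every difference given here. A difference between the time courses therefore cannot be told apart from whatever sets those libraries apart.

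Antiviral genes differed most often downward. Of the 29, 21 fell in depleted macrophages (median log2 change -0.88), against 3 that fell and 1 that rose in controls (median log2 change -0.04), and the difference passed for 10, all lower in depleted. Without genes with copies it passed for 3 of 16, and without any 1 library for 4 to 12 of 29: 4 without F1, 5 without W1 or W4, and 6 without WT1, WT4 or F3. Rsad2 had 241, 237 and 285 CPM at day 7, against 203, 245 and 169.9 CPM at day 4 in controls (log2 change 0.24, adjusted p = 0.402), and its 2 time courses differed (difference -1.64, SE 0.29, adjusted p = 0.0042). Isg20 had 64.5, 64.2 and 55.0 CPM at day 7, against 62.3, 86.9 and 68.7 CPM at day 4 in controls (log2 change -0.32, adjusted p = 0.137) and differed as well (difference -1.34, SE 0.23, adjusted p = 0.000972). For both genes depleted day 7 libraries were below all others, and every depleted day 4 library was above every control day 4 library. Bst2 differed by less (difference -0.85, SE 0.19, adjusted p = 0.0112). The differences of Usp18 (difference -1.17, adjusted p = 0.049) and Cmpk2 (difference -1.37, adjusted p = 0.0373), a mitochondrial nucleotide kinase, did not pass with genes with copies left out (adjusted p = 0.0957 and 0.0764). They were also lost without F1, among others (adjusted p = 0.12 and 0.0914).

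Glucocorticoid-induced genes rose in depleted macrophages, with 6 of 9 higher, against 1 higher and 3 lower in controls, and the difference passed for 5: Fkbp5, Tsc22d3, Klf9, Per1 and Ddit4. Fkbp5 had 8.87, 5.82 and 8.86 CPM at day 7, against 10.2, 15.3 and 22.2 CPM at day 4 in controls (log2 change -1.10, adjusted p = 0.0466), so its 2 time courses ran in opposite directions (difference 3.88, SE 0.56, adjusted p = 0.00111). Tsc22d3 had 153, 194 and 184 CPM at day 7, against 205, 169 and 167 CPM at day 4 in controls (log2 change -0.10, adjusted p = 0.638; difference 1.56, SE 0.22, adjusted p = 0.000112). Klf9 had 4.09, 14.1 and 10.5 CPM at day 7, against 12.1, 7.37 and 11.996 CPM at day 4 in controls (log2 change -0.21, adjusted p = 0.657; difference 2.28, SE 0.49, adjusted p = 0.0105), and Per1 14.7, 20.3 and 11.3 CPM at day 7, against 27.8, 21.6 and 36.2 CPM at day 4 (log2 change -0.97, adjusted p = 0.00875; difference 1.77, SE 0.37, adjusted p = 0.00946). For Fkbp5 and Tsc22d3 the depleted day 4 libraries were below control day 4 libraries, Fkbp5 with 1 overlap (F2 at 11.7 and W1 at 10.2 CPM). At day 7 Fkbp5 in depleted libraries was above all controls. The difference of Ddit4, which encodes an inhibitor of mTOR, was 2.31 (adjusted p = 0.0321), which was lost with genes with copies left out (adjusted p = 0.0584) and without FDG3, WT1, WT4, F2, F3 or W4 (adjusted p = 0.0685 to 0.0902).

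**Figure D5:**
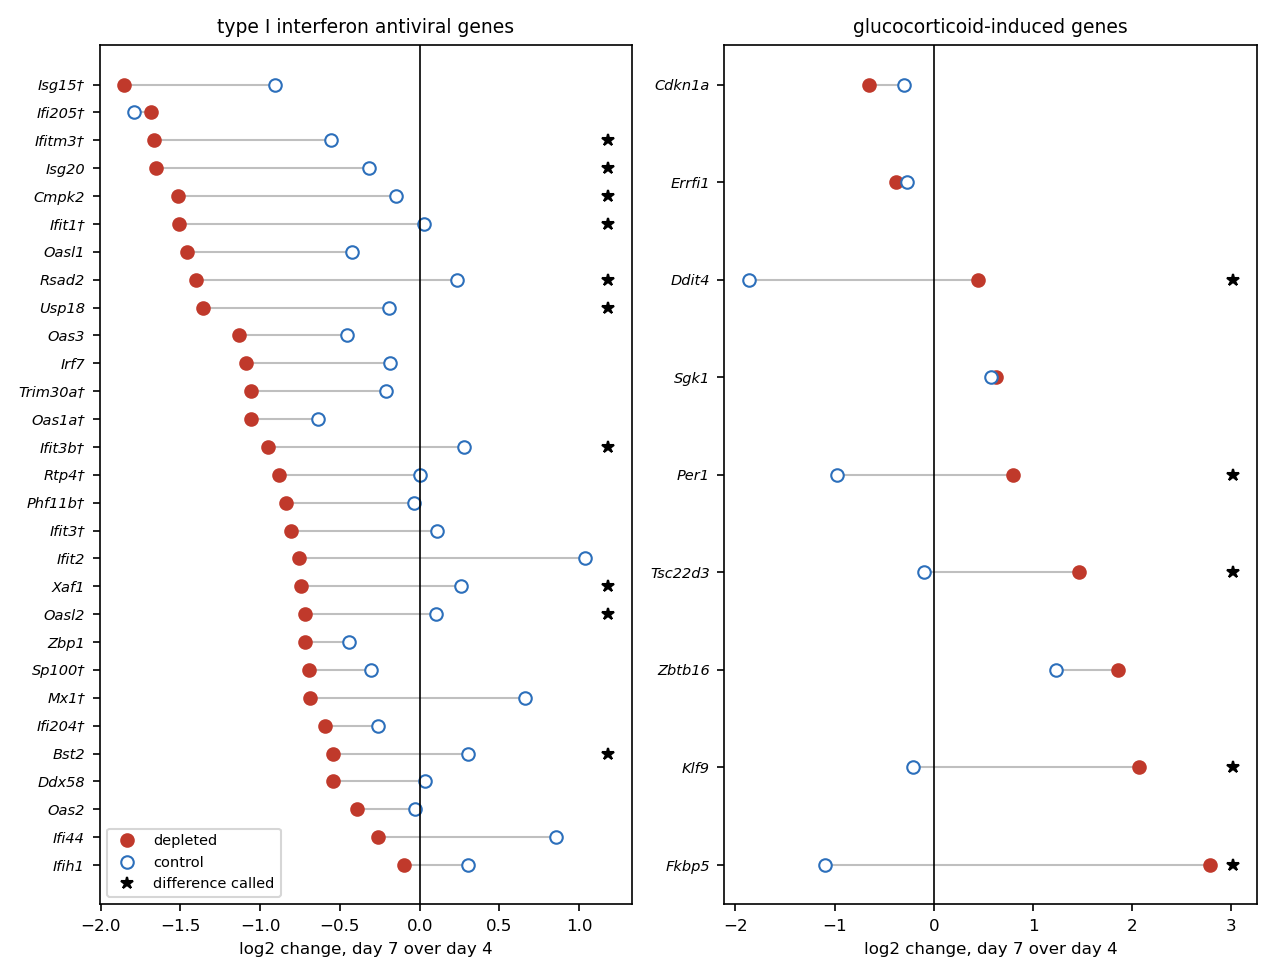
Log2 change from day 4 to day 7 (horizontal axis) of each tested gene (rows) of the type I interferon antiviral list, left, and the glucocorticoid-induced list, right, in depleted macrophages (filled red) and controls (open blue). Stars mark genes whose difference between the time courses passed, 10 of 29 on the left and 5 of 9 on the right.

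Other genes without copies also differed, of which Ltf, Kcnk6, Serinc3 and Dpysl2 were chosen after their values were seen. Ngp, which rose in depleted macrophages, had 4.37, 2.35 and 0.673 CPM at day 7, against 25.5, 38.7 and 28.0 CPM at day 4 in controls (log2 change -3.74, adjusted p = 0.00013), so that its time courses ran in opposite directions (difference 9.20, SE 0.86, adjusted p = 3.04e-05). Ltf moved likewise (in controls log2 change -1.89, adjusted p = 0.00372; difference 4.41, SE 0.76, adjusted p = 0.00111). The depleted day 4 libraries together held only 6 counts of Ngp and 7 of Ltf, so the size of both differences is uncertain. The potassium channel gene Kcnk6 had 19.7, 26.1 and 25.6 CPM at day 7, against 6.60, 7.57 and 5.28 CPM at day 4 in depleted macrophages (log2 change 1.78, SE 0.21, adjusted p = 1.73e-05). In controls it had 16.0, 20.1 and 14.8 CPM at day 7, against 19.4, 15.8 and 20.2 CPM at day 4 and did not pass (log2 change -0.21, adjusted p = 0.439), and the time courses differed (difference 1.99, SE 0.29, adjusted p = 0.000152). Serinc3, a membrane protein that limits retroviruses, differed upward too (difference 1.22, SE 0.21, adjusted p = 0.00107), as did Dpysl2, a cytoskeletal protein (difference 1.95, SE 0.27, adjusted p = 0.000342). Among genes with a lower difference, Metrnl, a secreted meteorin-like protein, had 302, 353 and 305 CPM at day 7, against 385, 459 and 340.4 CPM at day 4 in depleted macrophages (log2 change -0.42, adjusted p = 0.0192), a call lost without FDG3 (adjusted p = 0.0669), F1 (adjusted p = 0.0649) or F2 (adjusted p = 0.0938). In controls Metrnl had 639, 575 and 659.5 CPM at day 7, against 326, 379.5 and 319.9 CPM at day 4 (log2 change 0.80, adjusted p = 8.69e-05), where the day 7 libraries were the highest of all 12, and the time courses differed (difference -1.21, SE 0.18, adjusted p = 0.000181). Nrp1, a co-receptor of semaphorins and VEGF, had 112, 146 and 150.4 CPM at day 7, against 149, 168 and 184 CPM at day 4 in depleted macrophages. In controls Nrp1 had 185, 211 and 221 CPM at day 7, against 135, 137 and 130.5 CPM at day 4 (log2 change 0.54, adjusted p = 0.00104), again highest at day 7, and its time courses differed as well (difference -0.95, SE 0.16, adjusted p = 0.000666).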

How the data were processed

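Bulk RNA of sorted heart monocytes/macrophages was read as a 3′ library primed on poly(A) with molecular identifiers, per the labels' protocols; whether these were collapsed is not stated in those protocols. The deposited values are whole-number counts per gene made by the authors. STAR, Salmon, featureCounts, limma and GRCm38 are named without roles, per the submitters' processing notes. The table was matched by Ensembl ID to GENCODE mouse release 21 (52403 of 52636 IDs). CPM are counts over the total of all genes in the library. The 12 heart libraries in 4 groups were fitted together in R 4.3.3 with edgeR 4.0.16 (genes with low counts removed by filterByExpr, TMM normalization, robust quasi-likelihood), and tested for day 7 over day 4 in depleted mice, the same in controls, and the difference of both. The code was tested on simulated data. Alternatives were RLE normalization, no filter, DESeq2 1.42.0, limma-voom 3.58.1, genes with copies left out, the 2 depleted groups alone and each library left out. No 2 libraries were identical (chi-square per degree of freedom between replicates 5.47 to 28.8).

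The members and gene lists were chosen with earlier results of these data known, and 3 lists (endoplasmic reticulum stress, heat shock, lysosome) were added after values were seen. Named genes are, by a rule, the 15 per direction with the largest change (called, a mean of at least 10 CPM in 1 group, no overlap), up to 4 per list by adjusted p, a fixed panel, and 8 per direction by the difference. Other members named to complete a count, and Txnip, Ltf, Camp, Kcnk6, Serinc3 and Dpysl2, were chosen after their values were seen. Promoter sequences are RefSeq's (GRCm38.p6). A few genes that the rule would name are not reported here.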

Additional observations from a re-analysis of the deposited data

Results flagged for a closer look

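These genes were picked out because their change from day 4 to day 7 differed between depleted and control macrophages by the test of the difference itself (edgeR, adjusted p under 0.05, among named genes without copies elsewhere in the annotation). Values are the log2 change in depleted minus that in control macrophages. Each takes in the control day 4 libraries, which stood apart as described above, and cannot be told apart from whatever sets them apart. The difference was positive for the granule genes Ngp (9.20) and Ltf (4.41), the glucocorticoid-induced genes Fkbp5 (3.88), Ddit4 (2.31), Klf9 (2.28), Per1 (1.77) and Tsc22d3 (1.56), and Kcnk6 (1.99), Dpysl2 (1.95), Zfhx3 (1.77), Serinc3 (1.22), Mki67 (1.09), Abca1 (0.79) and Lrp1 (0.75). It was negative for the antiviral genes Rsad2 (-1.64), Cmpk2 (-1.37), Isg20 (-1.34), Usp18 (-1.17) and Bst2 (-0.85), and for Metrnl (-1.21), Nrp1 (-0.95), Pkib (-0.95), Zfp36 (-0.91), Klf6 (-0.82) and Lgals9 (-0.76). Zfp36, which encodes an RNA-binding protein that destabilizes cytokine mRNA, and Klf6, a transcription factor gene, are named here because their differences kept their calls under every alternative run. The differences of Abca1, Usp18, Cmpk2, Mki67, Ddit4, Lgals9, Lrp1 and Zfhx3 lost their calls under at least 1 alternative. Those of the neutrophil granule genes Ngp and Ltf rest on few counts at depleted day 4. F1, F2 and F3 held 0, 1 and 5 counts of Ngp and 4, 2 and 1 counts of Ltf.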

How the results depend on the processing

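No paired analysis was possible because the names of the heart columns cannot be matched to the replicate numbers in the labels, and the 2 days come from separate collections. Under RLE normalization, no filter, DESeq2, limma-voom, genes with copies left out and the 2 depleted groups alone, 2462 to 3141 genes passed between the days in depleted macrophages, against 3101 as reported, and without any 1 library 2163 to 2968. The count of higher genes ranged from 1016 (without F1) to 1475 with 1 library left out. For the difference of the time courses, 97 genes passed with genes with copies left out (74 higher, 23 lower), 231 passed as lower with no filter and 156 with DESeq2, and with 1 library left out 53 to 104. The day 7 minus day 4 difference of summed ribosomal protein genes (-649.8 CPM) ranged from -1581 to 214.2 CPM with 1 library left out and was -2555 CPM on TMM-scaled sizes, and that of mitochondrial transcripts (1406 CPM) was -110.8 CPM on TMM-scaled sizes. Tgfb1 ranged from -0.20 to 0.012 in log2 change with 1 library left out. Gbp2 ranged from -0.79 to 1.46, and was 0.31 with limma-voom. Other reversals were not seen among the named genes. The cause of these changes was not tested. Of 179 called genes named in the text, 134 kept their call without any 1 library. RLE normalization lost 4 of the calls, no filter 10, DESeq2 1 and limma-voom 12. The fit of the 2 depleted groups alone lost 18, and that with genes with copies left out lost 4 of the 153 it held. In other lists with 0 to 2 called members in a direction, a library left out moved the count by at most 2. The shallowest library, F2, held 2642452 counts.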

Other observations

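Among the genes with the largest changes, several have not been described above. Of those that fell, Dmkn, which encodes the secreted protein dermokine, had 2.30, 5.55 and 5.36 CPM at day 7, against 44.0, 34.4 and 34.9 CPM at day 4 (log2 change -3.29, SE 0.30, adjusted p = 7.09e-06). Gja1, which encodes the gap junction protein connexin 43, had 1.64, 1.67 and 3.26 CPM at day 7, against 15.0, 11.4 and 6.88 CPM at day 4 (log2 change -2.53, SE 0.34, adjusted p = 5.42e-05). Every day 7 library was below every day 4 library for both. Plcb1, a phospholipase C gene, and Igfbp6, which encodes a binding protein of insulin-like growth factors, fell too (log2 change -2.41 and -2.35). Receptor and interferon-inducible genes were also among them: Trem3 (log2 change -2.36), Ifitm6 (log2 change -2.50), Ifitm1† (log2 change -2.19), Trim30b (log2 change -2.48) and the neutrophil surface gene Cd177† (log2 change -2.65).

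Of those that rose, Sult1a1†, a sulfotransferase gene, had 47.8, 29.0 and 52.0 CPM at day 7, against 1.78, 7.57 and 1.92 CPM at day 4 (log2 change 3.67, SE 0.44, adjusted p = 0.000102). Rapgef5, an exchange factor of small GTPases, had 7.00, 6.11 and 28.0 CPM at day 7, against 2.14, 1.51 and 0.799 CPM at day 4 (log2 change 3.01, SE 0.67, adjusted p = 0.00604), and lost its call with limma-voom (adjusted p = 0.0511). Zfhx3, a transcription factor gene, had 35.9, 84.2 and 53.6 CPM at day 7, against 8.20, 7.57 and 8.63 CPM at day 4 (log2 change 2.68, SE 0.26, adjusted p = 7.09e-06). None of them overlapped between the days. Cp, which encodes the copper ferroxidase ceruloplasmin, had 25.4, 14.0 and 78.8 CPM at day 7, against 1.96, 3.78 and 6.56 CPM at day 4 (log2 change 3.06). Its call was lost without F1 (adjusted p = 0.0654). Slc13a3, a dicarboxylate transporter gene, had 25.6, 17.5 and 214 CPM at day 7, against 11.1, 7.95 and 6.40 CPM at day 4 (log2 change 3.14). FDG3 was the highest library for both genes, and for Slc13a3 it alone stood far above the rest. The call of Slc13a3 was lost without F1 (adjusted p = 0.107), F2 (adjusted p = 0.105) or F3 (adjusted p = 0.143). The antibody light chain gene Iglc1 had 29, 307 and 18 counts at day 7, against 2, 3 and 0 counts at day 4, so that FDG2 held most of them, and its call (adjusted p = 0.0327) was lost without F1 (adjusted p = 0.109), F2 (adjusted p = 0.057) or F3 (adjusted p = 0.12).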
